A study of Rattus norvegicus with 15 samples.

Results

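The complement genes described here are C3, C1qa, C1qb, C1qc, C1s, Serping1, C3ar1, C5ar1 and Itgam, each represented by the single probe set that the array annotation names with that symbol alone. They are 9 of the 14217 genes that the annotation names, and their 9 probe sets are among the 31042 on the array that are not controls. The genes were chosen by their log2 differences between ethanol and water rats, which were known from earlier results, together with their place in the complement pathway, and 8 of them were bright enough to be tested. Expression was measured on Affymetrix rat arrays, with 1 array per animal, in the ventral tegmental area, a part of the midbrain rich in dopamine neurons. Per the labels, 7 rats received ethanol and 8 were age-matched controls on water, and the series title names alcohol-preferring (P) rats, selected over generations for drinking ethanol, and loss-of-control drinking. Both groups therefore carry the same selected background as far as the title states it, although the design text mentions lines of high and of low consumption, which the labels do not separate. The labels used here state neither amounts drunk nor the interval since drinking ended, and the 15 arrays include no ethanol animal numbered 3. The tissue carried its defining transcripts: Slc18a2, the vesicular monoamine transporter, averaged 14.39 ± 0.19 log2 units in ethanol rats and 14.18 ± 0.26 in water rats (SD, n = 7 and 8).

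Complement is a proteolytic cascade of innate immunity. C1q, a protein built from A, B and C chains, binds its targets and activates the proteases C1r and C1s, which lead to cleavage of C3. Fragments of C3 coat surfaces and are recognised by receptors such as complement receptor 3, whose alpha chain is encoded by Itgam, and the released anaphylatoxins act through C3ar1 and C5ar1. In the brain, microglia make most C1q and carry complement receptor 3, and in developing mice C1q and C3 mark synapses for removal by microglia. C3 is also made by hepatocytes, reactive astrocytes and other cells.

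The sequence upstream of the start is shown for C3 and C1qa, which had the largest differences of the 9, for C1qb as a second chain of the same protein, and for Itgam, which followed the microglial markers within groups. The RefSeq promoter table for the GRCr8 assembly held 5 of the 9 genes, namely C3, C1qa, C1qb, C3ar1 and Itgam, and the first 250 bases of each entry, which end at the base before the annotated gene start, are used. Capitals mark matches on either strand to GAGGAA (the core recognised by the myeloid factor PU.1) or TTGCNNAA (a C/EBP core in which 2 bases are free). On both strands 3 more were searched, TGANTCA (AP-1), GGG then any 2 bases then TTTCC (NF-kappaB) and GAAA then any 2 bases then GAAA (interferon response). The 4 sequences read 5′ to 3′ along each gene's own strand.
C3, chr9:2201340-2201589, minus strand: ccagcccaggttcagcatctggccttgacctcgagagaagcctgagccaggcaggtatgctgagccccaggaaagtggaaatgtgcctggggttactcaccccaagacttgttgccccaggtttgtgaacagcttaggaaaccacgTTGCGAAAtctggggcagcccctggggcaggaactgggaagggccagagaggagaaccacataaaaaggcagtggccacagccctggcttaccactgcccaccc
C1qa, chr5:154419934-154420183, minus strand: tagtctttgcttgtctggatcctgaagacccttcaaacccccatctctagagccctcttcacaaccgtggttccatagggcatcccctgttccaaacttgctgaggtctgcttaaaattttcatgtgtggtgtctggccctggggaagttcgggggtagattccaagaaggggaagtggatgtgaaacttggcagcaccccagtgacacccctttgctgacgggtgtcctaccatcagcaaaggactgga
C1qb, chr5:154407828-154408077, minus strand: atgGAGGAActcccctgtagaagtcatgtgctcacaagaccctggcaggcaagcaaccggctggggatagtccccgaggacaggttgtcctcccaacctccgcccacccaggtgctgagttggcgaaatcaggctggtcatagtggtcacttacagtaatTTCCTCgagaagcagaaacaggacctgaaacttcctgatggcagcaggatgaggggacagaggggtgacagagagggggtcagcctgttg
Itgam, chr1:192089342-192089591, plus strand: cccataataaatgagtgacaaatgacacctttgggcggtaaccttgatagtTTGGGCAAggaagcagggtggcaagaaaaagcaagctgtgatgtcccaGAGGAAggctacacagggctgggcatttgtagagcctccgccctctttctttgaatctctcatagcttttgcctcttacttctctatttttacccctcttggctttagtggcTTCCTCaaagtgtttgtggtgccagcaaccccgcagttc
Of the windows not printed, that of C3ar1 held the only TGANTCA match of the 5 genes, at position -72, and the only NF-kappaB match, at -64 on the opposite strand. C3 held 1 TTGCNNAA match, starting at position -104 relative to the gene start, and none of the other motifs. C1qb held 2 GAGGAA matches and Itgam held 2 GAGGAA matches and 1 TTGCNNAA match, while none of the 5 motifs was found in the C1qa window. In all 33469 promoter windows of this length, 23.3% held GAGGAA, 9.22% TTGCNNAA, 6.34% TGANTCA, 1.3% the NF-kappaB motif and 3.41% the interferon response motif. The matches are letters only and say nothing of whether a factor binds. In the same annotation, C1qb, C1qc and C1qa are consecutive genes and C1r lies next to C1s.

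The question addressed was how the complement system stood in rats after loss-of-control ethanol drinking. C3 was 2.40 times as high in ethanol as in water rats, C1qa 1.27 times and C1s 1.19 times, while the other C1q chains, the C1 inhibitor and the receptors differed by under 1.1 times. These differences were among the values by which the genes were chosen, so they are given as descriptions, with the standard error (SE) from a limma fit across the array and with no p. Across all probe sets tested, 0.929% passed the threshold of an adjusted p below 0.05 (0.387% higher and 0.542% lower in ethanol rats), and of the 8 tested complement genes 1, C3, was among them. The median difference of the 8 was 0.11 log2 units, beside 0.0062 over all 18625 tested probe sets, and 7 of the 8 had higher means in ethanol rats, beside 53.3% of all. The genes were chosen with these values in view, so nothing is read from these counts.

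C3 is the protein on which all routes of complement activation converge. Its log2 value ran from 8.93 through a median of 9.35 to 10.06 in ethanol rats, against 7.69 through 8.10 to 8.87 in water rats. Every ethanol rat lay above every water rat, a separation found in 0.623% of tested probe sets, but the gap between the nearest animals, ethanol rat 7 and water rat 4, was small. The highest values were those of ethanol rats 2, 4 and 8, and the lowest that of water rat 8. C3 averaged 9.50 ± 0.42 in ethanol rats and 8.23 ± 0.37 in water rats (SD, n = 7 and 8), a difference of 1.26 log2 units (SE 0.18), and no other tested probe set had a larger positive difference. The SD within each group was the widest of the 9 genes.

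Water rat 4 stood apart in some transcripts of liver. Alb, the albumin gene that hepatocytes express, was at 13.54 in that array and between 7.14 and 8.82 in the other 14. Apoc3, an apolipoprotein of liver, was at 11.70 against at most 6.91 elsewhere, and C9, a terminal complement component made in liver, at 8.05 against at most 5.70 (Apoc3 and C9 were picked after their values were seen, and both lie below the filter over all arrays). Apoa1 and Fga, in the same list as Alb and also below the filter, had no such rise in any water rat. Their water means were 5.22 (SD 0.29) for Apoa1, and 4.94 (SD 0.10) and 5.05 (SD 0.13) for the probe sets of Fga. In water rat 4, 21 probe sets lay more than 2 log2 units above every other array, and in the other 14 arrays this held for 1 probe set in all. The water rat nearest to the ethanol range of C3 was this one, and without it the C3 difference was 1.35 log2 units. The other differences without this rat were 0.37 for C1qa, 0.13 for C1qb, 0.11 for C1qc, 0.24 for C1s, 0.16 for Serping1, 0.03 for C3ar1, -0.04 for C5ar1 and 0.06 for Itgam. C5ar1 was highest of all 15 rats in water rat 4, at 7.45, and Serping1 was highest there too, at 7.89.

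**Figure D1:**
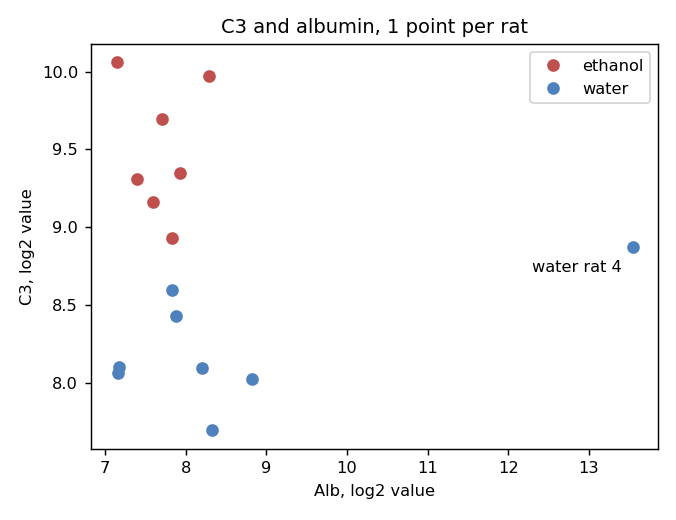
C3 (log2 value, vertical) against Alb (log2 value, horizontal), 1 point per rat, with ethanol rats in red and water rats in blue. Water rat 4 lies alone at an Alb value of 13.54 and has the highest C3 of the water rats, 8.87, still below all 7 ethanol rats.

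Among the C1q chains the difference was largest for C1qa. This gene, which encodes the A chain, ran from 9.93 through 10.21 to 10.39 in ethanol rats, against 9.58 through 9.84 to 10.07 in water rats. The groups overlapped: ethanol rat 1 lay below water rats 1, 4, 5 and 6, and the other 6 ethanol rats lay above all water rats. The C1qa means were 10.18 ± 0.15 in ethanol and 9.84 ± 0.20 in water rats (SD, n = 7 and 8), 0.34 log2 units apart (SE 0.09), and C1qa did not pass the threshold.

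C1qb, the B chain gene, ran from 9.21 through 9.64 to 9.72 in ethanol rats, against 9.18 through 9.51 to 9.61 in water rats (difference 0.11, SE 0.08). C1qc, the C chain gene, ran from 9.24 through 9.38 to 9.57 in ethanol rats, against 9.0 through 9.34 to 9.56 in water rats (difference 0.10, SE 0.07). For C1qb, 5 of the 7 ethanol rats lay above all water rats and ethanol rats 5 and 6 lay within the water range, while for C1qc 1 ethanol rat exceeded the highest water rat. Neither gene passed. Within a rat, C1qa minus the mean of C1qb and C1qc was 0.68 ± 0.11 log2 units in ethanol rats and 0.44 ± 0.12 in water rats (SD, n = 7 and 8), with ranges from 0.49 to 0.79 in ethanol and from 0.23 to 0.60 in water rats. This value compares probe sets only as a shift between rats, since the levels of different probe sets are not on one scale.

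C1s encodes the protease that C1q activates and that cleaves C4 and C2. It ran from 8.26 through 8.43 to 8.68 in ethanol rats, against 7.84 through 8.25 to 8.46 in water rats. All 7 ethanol rats were above the water mean, yet 4 of the 8 water rats lay within the ethanol range, and the difference of 0.25 log2 units (SE 0.08) did not pass. Serping1, the C1 inhibitor that blocks C1r and C1s, ran from 7.31 through 7.60 to 7.89 in ethanol rats, against 7.07 through 7.49 to 7.89 in water rats (difference 0.11, SE 0.13). The highest rats of both groups were level, and the lowest water rats lay under the lowest ethanol rat.

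The receptors had the smallest differences of the 9. C3ar1, the receptor of the C3a anaphylatoxin, lay below the filter on dim probe sets, with a mean of 6.45 where 6.94 was needed, and was not tested. Its values ran from 6.33 through 6.46 to 6.60 in ethanol rats, against 6.21 through 6.48 to 6.57 in water rats (difference 0.03, SE 0.06), so the groups overlapped nearly throughout. C5ar1, the C5a receptor, was the one member with a lower mean in ethanol rats: it ran from 6.99 through 7.21 to 7.42 in ethanol rats, against 7.10 through 7.27 to 7.45 in water rats (difference -0.07, SE 0.06). Itgam ran from 7.50 through 7.52 to 7.75 in ethanol rats, against 7.09 through 7.54 to 7.81 in water rats (difference 0.06, SE 0.08), and 0 ethanol rats exceeded the highest water rat. Its difference was -0.01 without water rat 7, the lowest animal.

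**Figure D2:**
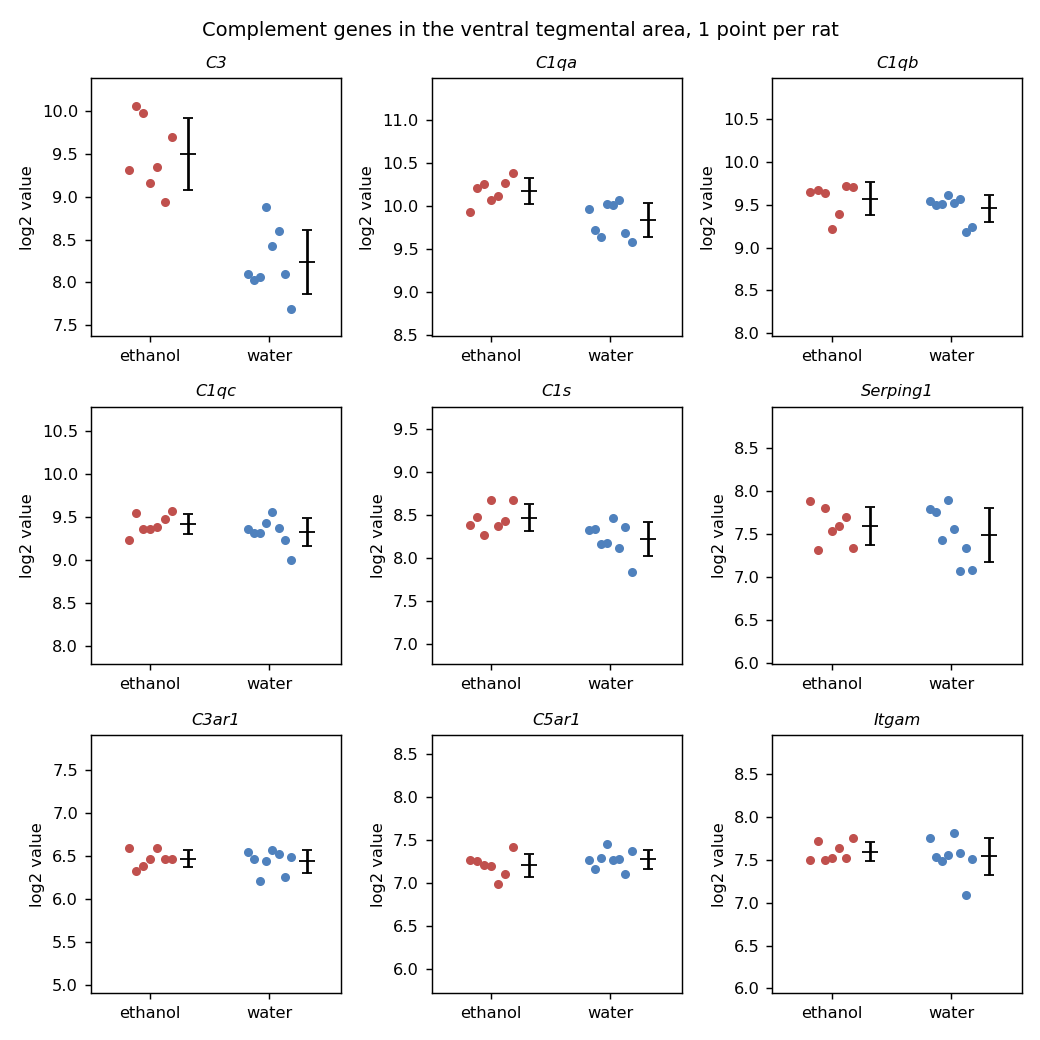
Log2 value of the 9 complement genes in each rat (points), with ethanol rats left of water rats, and the mean with its SD (bar) beside each group; every panel spans the same number of log2 units. The groups separate in C3, with ethanol rats from 8.93 to 10.06 and water rats from 7.69 to 8.87, and overlap in the other 8 genes.

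The rest of the pathway was taken from role lists of 45 further complement symbols, 30 of which had a probe set under that symbol alone and 11 of which were bright enough to be tested. None of the 11 passed, against 0.929% of all probe sets, while 3 had an unadjusted limma p below 0.05; 4 had higher and 7 had lower means in ethanol rats, with a median of -0.05 log2 units. C1r, the partner protease of C1s, was at 8.37 ± 0.14 in ethanol and 8.25 ± 0.13 in water rats (SD, n = 7 and 8; limma adjusted p = 0.514). In the lectin route, Masp1 had the smallest p of 3 tested genes (difference -0.15, SE 0.07, limma adjusted p = 0.403). Among regulators in plasma, Vtn, which encodes vitronectin and blocks the terminal complex, was at -0.22 (SE 0.09, limma adjusted p = 0.312), and among regulators on membranes Susd4 was at -0.05 (SE 0.05, limma adjusted p = 0.681). C8g, the one tested gene of the terminal components, was at -0.08 (SE 0.09, limma adjusted p = 0.761).

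The largest difference among these 11 was that of Itgb2, the beta chain that pairs with the Itgam product in complement receptor 3. It averaged 8.55 ± 0.17 in ethanol and 8.20 ± 0.17 in water rats (SD, n = 7 and 8; difference 0.35, SE 0.08, limma adjusted p = 0.0524), just outside the threshold, while the difference of Itgam, its partner, was 0.06. Over 23 fits, this one included, Itgb2 passed in 7, with limma adjusted p from 0.0330 to 0.740, and its difference was -0.06 in the fit with the microglial mean described below as a covariate. In that same fit Cr1l, a membrane regulator, passed (limma adjusted p = 0.0489, difference -0.21), its only pass in the 23, against -0.02 as reported here; no other of the 11 passed in any of them. The Itgb2 product also pairs with other leukocyte alpha chains.

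**Figure D3:**
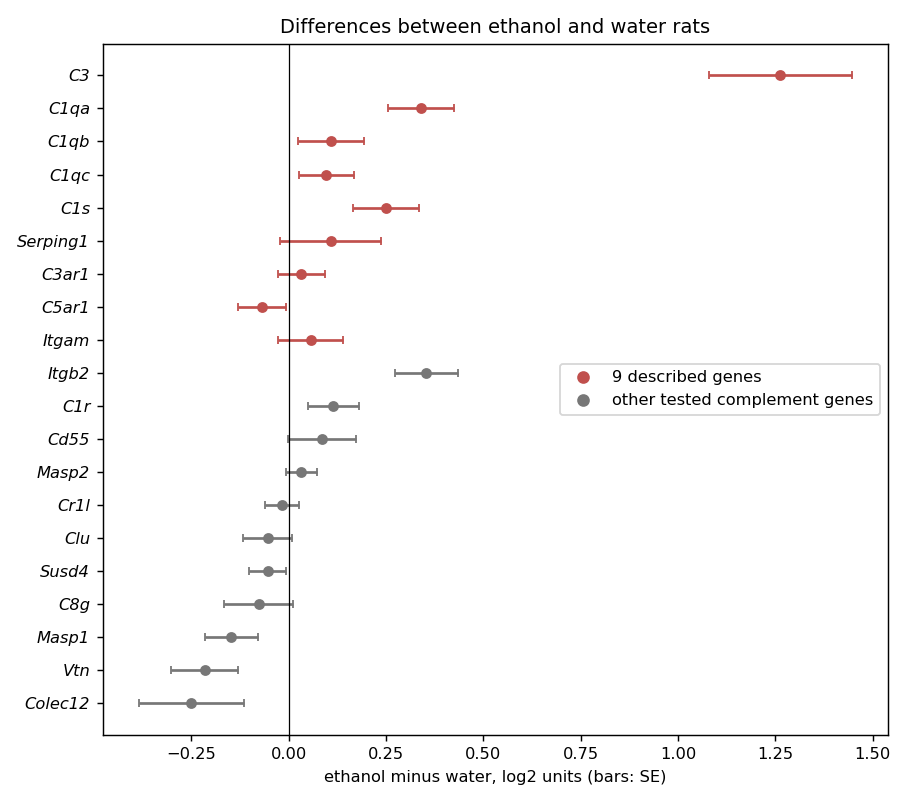
Difference between ethanol and water rats in log2 units (horizontal, points; bars are SE) for the 9 described genes in red and the 11 other tested complement genes in grey. C3 stands at 1.26, all others lie between -0.25 (Colec12) and 0.35 (Itgb2).

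Markers of microglia differed between the groups as well. Of 16 listed markers, 12 had a probe set and all 12 were bright enough to be tested; 12 of 12 had higher means in ethanol rats and 6 passed, the median difference being 0.31 log2 units. Of the brightest, Ctss, a lysosomal protease, rose by 0.36 (limma adjusted p = 0.0411), while P2ry12, a purine receptor, was at 0.27 (limma adjusted p = 0.204) and Aif1 at 0.37 (limma adjusted p = 0.0908). By the brightest probe set of each gene, the most changed were Gpr34 (0.89, limma adjusted p = 4.46e-04) and Tyrobp (0.41, limma adjusted p = 0.00824), a receptor and a signalling adaptor of microglia. Trem2, also of this list, was at 0.32 by its brightest probe set (limma adjusted p = 0.0240) and at 0.52 by a dimmer one (limma adjusted p = 0.00587). The mean of the list ran from 9.50 to 9.77 in ethanol rats and from 9.12 to 9.53 in water rats, so water rat 5 alone overlapped the ethanol range. In tissue RNA, a change in the number of cells of a type and a change in RNA per cell cannot be told apart. With this list mean as a covariate the difference of C3 was 0.70 (SE 0.29), those of C1qa and C1s were -0.05 (SE 0.10) and -0.01 (SE 0.13), those of C1qc and Itgam were -0.24 (SE 0.07) and -0.31 (SE 0.10), and none of the 8 passed. Because the list mean nearly separates the groups, this fit cannot tell its part from that of ethanol. The SE of C3 was 0.18 without the covariate. C3 minus the microglial mean was -0.13 ± 0.38 in ethanol rats and -1.07 ± 0.32 in water rats (SD, n = 7 and 8), with the ranges overlapping through water rat 4.

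By the median of each list, markers of other cell types differed less or in the other direction. None of the 10 tested astrocyte markers and none of the 12 tested endothelial and mural markers passed, with median differences of -0.02 and -0.01. Higher means in ethanol rats were found for 4 of the 10 and 6 of the 12. The astrocyte marker Gjb6 was at -0.24 (SE 0.06, limma adjusted p = 0.0890). Kcnj8, a mural marker below the filter and untested, was at 0.36 (SE 0.07). In the list of reactive astrocyte genes, 5 of the 12 with a probe set were bright enough and none passed. Their median difference was 0.13. Gfap was at 12.50 ± 0.44 in ethanol and 12.35 ± 0.41 in water rats (SD, n = 7 and 8). Ggta1 was at 0.24 (SE 0.07, limma adjusted p = 0.121) and Cp at 0.13 (SE 0.07, limma adjusted p = 0.471). Vim was at -0.11 (SE 0.12) and S1pr3 at -0.02 (SE 0.07). Lcn2 and Serpina3n lay below the filter. Also untested, Gbp2 was at 0.23 (SE 0.08) and the brighter probe set of Emp1 at -0.58 (SE 0.18). Of 11 tested oligodendrocyte markers, 4 passed as lower in ethanol rats and none as higher, beside 0.542% and 0.387% of all tested probe sets. Ugt8 (-0.69, limma adjusted p = 0.00413) and Fa2h (-0.43, limma adjusted p = 0.0210) fell the most, and both encode enzymes of myelin lipid synthesis. Opalin, the 1 marker of the 11 with a higher mean in ethanol rats, was at 0.20 (SE 0.08, limma adjusted p = 0.327). Meningeal and fibroblast transcripts had lower means in ethanol rats in 7 of 7 tested genes, none past the threshold, with list means from 8.56 to 9.40 in ethanol and from 8.84 to 9.52 in water rats. Below the filter and untested, Col3a1 was at -0.73 (SE 0.15) and the probe sets of Col1a1 at -0.52 (SE 0.11) and -0.25 (SE 0.10). Slc6a13 (0.01, SE 0.06) and Fmod (0.10, SE 0.10), also untested, were not lower. Of the border macrophage and leukocyte markers, 12 of the 13 with a probe set lay below the filter and were not tested, and Lyz2, a lysozyme of myeloid cells, was at 0.15 (SE 0.06, limma adjusted p = 0.371). Among the untested ones, the markers of border macrophages had lower means in ethanol rats: both probe sets of Lyve1 (differences -0.83, SE 0.25, and -0.50, SE 0.14), Mrc1 (-0.68, SE 0.33) and Cd163 (-0.19, SE 0.12). The other untested probe sets of that list, of leukocyte genes, differed by -0.06 to 0.09. The part of these lists in the C3 difference was not tested. RNA integrity showed no difference past the threshold: the 3′ minus 5′ difference of the Gapdh and beta actin controls was 1.45 ± 0.05 in ethanol and 1.47 ± 0.08 log2 units in water rats (SD, n = 7 and 8; two-sided exact permutation p = 0.515).

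Which rats stood high together within a group is a separate measure from the difference between groups. For this, each group's mean was removed and 60 relations were computed over the 15 rats: all 28 pairs of the 8 tested genes, and each gene with the means of the microglial, astrocyte, endothelial and meningeal lists. Pearson's r was tested by permutation within groups (100000 resamples, two-sided, Benjamini-Hochberg adjustment over the 60), and 4 relations passed. Spearman's rho was taken from ranks made within each group and centred there, then tested and adjusted in the same way. By this rho 7 relations passed, namely these 4 and C1qa with C1qb, C1qb with C1qc, and C1qc with Itgam. C1qa and C1qc varied together across rats (r = 0.807, permutation p = 1.2e-04, adjusted p = 0.0036; Spearman's rho = 0.829, permutation p = 7.8e-04, adjusted p = 0.0335). The relation held in both groups, with r of 0.856 in ethanol and 0.785 in water rats. It was 0.708 without the 2 rats farthest from the median of C1qa. For a relation with a list, the 2 rats left out were those farthest from the median of the list mean.

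C1qc and C1qa also followed the microglial mean. For C1qc the r was 0.861 (permutation p = 1.1e-04, adjusted p = 0.0036; rho = 0.771, permutation p = 0.00211, adjusted p = 0.0335), with 0.846 in ethanol and 0.868 in water rats, and 0.766 without the 2 farthest rats. For C1qa it was 0.800 (permutation p = 7.4e-04, adjusted p = 0.0148; rho = 0.743, permutation p = 0.0039, adjusted p = 0.0355), with 0.811 in ethanol and 0.799 in water rats, and 0.764 without the 2 farthest rats. Without ethanol rat 8 the C1qa relation no longer passed (adjusted p = 0.063). Itgam passed with r = 0.767 (permutation p = 0.00226, adjusted p = 0.0339; rho = 0.743, permutation p = 0.00414, adjusted p = 0.0355), at 0.681 in ethanol and 0.797 in water rats and at 0.795 without the 2 farthest rats, but passed in 5 of 15 fits with 1 rat left out (adjusted p up to 0.106, r from 0.693 to 0.842).

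C1qc with Itgam passed by rho (0.771, permutation p = 0.00221, adjusted p = 0.0335) and not by r (0.566, permutation p = 0.0631, adjusted p = 0.231), with r of 0.773 in ethanol and 0.511 in water rats and 0.632 without the 2 rats farthest from the median of C1qc.

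C1qb was less closely tied to the other chains by r than by rank. Its r was 0.594 with C1qa (permutation p = 0.0234, adjusted p = 0.170; rho = 0.771, permutation p = 0.00223, adjusted p = 0.0335) and 0.665 without the 2 rats farthest from the median of C1qa. With C1qc it was 0.571 (permutation p = 0.0295, adjusted p = 0.174, rho = 0.757, permutation p = 0.00307, adjusted p = 0.0355). Without the 2 rats farthest from the median of C1qb it was 0.661. With the microglial mean it was 0.523 (permutation p = 0.0446, adjusted p = 0.206, rho = 0.486, permutation p = 0.0856, adjusted p = 0.285). That r was 0.224 in ethanol and 0.765 in water rats, and 0.479 without the 2 rats farthest from the median of the list mean. Ethanol rat 5 had the lowest C1qb of its group, 9.21, and the lowest water rat was rat 7 at 9.18.

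C3 did not pass with any gene or list. Its r was 0.621 with C1qa (permutation p = 0.0171, adjusted p = 0.170; rho = 0.629, permutation p = 0.0207, adjusted p = 0.113), with 0.354 in ethanol and 0.840 in water rats; whether these differ was not tested. With the 2 rats farthest from the median of C3 left out it was 0.617. With the microglial mean the r of C3 was 0.524 (permutation p = 0.0485, adjusted p = 0.208, rho = 0.600, permutation p = 0.0294, adjusted p = 0.147). That r was 0.540 in ethanol and 0.544 in water rats, and 0.441 without the 2 rats farthest from the median of the list mean. With the astrocyte mean the r of C3 was 0.163 (permutation p = 0.573, adjusted p = 0.877, rho = 0.214, permutation p = 0.477, adjusted p = 0.817). Without the 2 rats farthest from the median of the astrocyte mean it was -0.123. Without water rat 4, the animal with high Alb, r was 0.568 with C1qa and 0.606 with the microglial mean.

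C1s and Serping1, which cells other than microglia also make, passed with no list. Among the lists C1s had its highest r with the endothelial and mural mean, 0.612 (permutation p = 0.0204, adjusted p = 0.170; rho = 0.657, permutation p = 0.0141, adjusted p = 0.0848), which did not pass and was 0.525 without the 2 farthest rats. Serping1 had its highest list r with the meningeal mean, 0.441 (permutation p = 0.0976, adjusted p = 0.293; rho = 0.257, permutation p = 0.389, adjusted p = 0.753), and 0.316 without the 2 farthest rats. C1s and C3 had an r of 0.068 (permutation p = 0.811, adjusted p = 0.974, rho = 0.014, permutation p = 0.980, adjusted p = 0.981). Without the 2 rats farthest from the median of C3 it was 0.132.

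**Figure D4:**
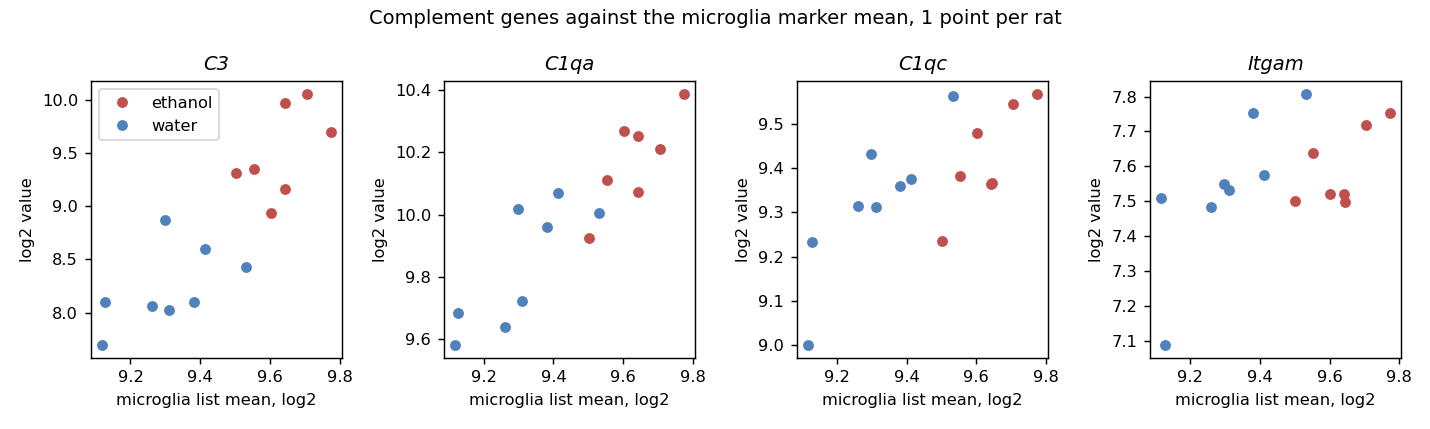
Log2 value of C3, C1qa, C1qc and Itgam (vertical) against the mean log2 value of the microglial marker list (horizontal), 1 point per rat, with ethanol rats in red and water rats in blue. C1qa and C1qc follow the list within each group, with r of 0.811 and 0.846 in ethanol and 0.799 and 0.868 in water rats, and the ethanol points of C3 lie above all water points.

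The genes whose pattern over the 15 rats was most like C3, after removal of the group means, were Add1 (r = 0.892), Xrcc6 (0.847), Zfp157 (0.847), Irf9 (0.798) and Rnaset2 (0.792), among 13752 probe sets with 1 symbol. The lowest were Arid1b (-0.875) and Kcnk13 (-0.793). Of these 7, Rnaset2 rose in ethanol rats (difference 0.25, SE 0.05, limma adjusted p = 0.0315) and the others did not pass. For the mean of the C1q genes the most alike were Ptbp1 (0.896), Clec4a3 (0.882), Slc35d2 (0.882), Sgce (0.871) and Ldaf1 (0.870), among 13750 probe sets. The list is a ranking over 15 arrays with no test, and genes at its top are the extremes of many.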

How the data were processed

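For each of 15 rats, 25 ng of RNA from the ventral tegmental area was amplified and labelled by Affymetrix's 2-cycle procedure, per the labels. The deposited log2 values were made by the authors with RMA, per the submitters' processing notes. RMA corrects background, equalises the intensity distribution of arrays and summarises probe sets, so it removes shifts common to most transcripts and compresses differences of dim probe sets. Its software version is not given in the sources used here. Symbols came from GEO's platform annotation (20826 of 31042 probe sets with 1 symbol, 436 with several), looked up by Entrez number in RefSeq GRCr8, where 20758 were found. Probe sets with a mean at or above the 40th percentile (log2 6.94) were kept, 18625 in all, and fitted with limma 3.58.1 in R 4.3.3 (two-sided, no covariate, Benjamini-Hochberg). A gene with several kept probe sets was represented by the brightest. Precision depends on the number of arrays, and a typical SE (the median) was 0.056. The fit and the correlations were tested on simulated data.

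The 9 genes and all lists were chosen with earlier results of these data known. Named genes are the 9, in each role list the tested gene with the smallest p and any that passed, the 5 highest and 2 lowest in likeness to C3 (5 highest for C1q), and up to 3 of the brightest genes of each marker list. Colec12, Cr1l, Lyve1, Mrc1, Cd163, Gpr34, Tyrobp, Trem2, Ugt8, Fa2h, Alb, Apoc3, C9, Apoa1, Fga, Lcn2 and Serpina3n were named after their values were seen. So were Col3a1, Col1a1, Slc6a13, Fmod, Ggta1, Cp, Gbp2, Emp1, Gjb6, Kcnj8 and Opalin. Groups share 7 replicate numbers, but the correlation of deviations of same-numbered arrays ran from -0.415 to 0.295 and was over 0.1 in 4 of 7, so the arrays were not treated as pairs. The labels give no batch, litter or scan date, so p-values measure the spread between these arrays.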

Additional observations from a re-analysis of the deposited data

Results flagged for a closer look

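Alb in water rat 4 stood at 13.54, and the next water rat was at 8.82, a gap of 0.739 of the range of the water group. Itgam in water rat 7 stood at 7.09 as the lowest water value, with the next at 7.48, a gap of 0.547 of the range. A gap above 0.526 of the range is past Dixon's critical value for 8 rats. The critical value was applied to each group of the 9 genes, 4 marker list means, Alb and the 3′ minus 5′ difference, 30 groups in all, and chance alone passes it in about 1 of 20. No value of the other 8 complement genes passed it in either group.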

How the results depend on the processing

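C3 passed in 22 of 23 other fits and no other of the 9 genes passed in any: with no filter, with a stricter one at the 60th percentile (which left C3, C1qa, C1qb and C1qc to test), a trended variance, array weights, renormalised or median-centred values, the replicate number as a block, and each rat left out. C3 did not pass with the microglial mean as a covariate. The 9 genes were chosen by this same difference, so these fits describe how it depends on the processing and are no further test of it. The C3 difference ran from 1.17 to 1.36 with 1 rat left out. Over the array, the count of probe sets past the threshold ran from 100 (without ethanol rat 7) to 180 with 1 rat left out, 102 without ethanol rat 8, against 173 in the whole set. With the replicate number as a block it was 59, 51 of them shared with the 173, and the C3 difference was 1.24. The labels do not say whether the shared numbers pair the rats, and the correlations of same-numbered arrays cannot exclude it. The block fit also has fewer degrees of freedom. With the microglial mean as a covariate the count was 482 (40 higher and 442 lower), 55 of them shared. The 4 correlations past the threshold numbered 2 to 5 with 1 rat left out, with 2 without ethanol rat 8, and 4 after renormalisation. The exact permutation p of RNA integrity ran from 0.322 to 0.884 with 1 rat left out. Leaving out rats in these correlations and in the integrity test was chosen after seeing the data. Each gene had 1 probe set, so a mean over several could not be tried. Signal over background is known only through mean levels, and 15 arrays limit what could pass.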

Other observations

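Serping1 ran against Itgam, C1qc and the microglial mean among ethanol rats, while its r with them was above 0 among water rats. Its r with Itgam was -0.883 in the 7 ethanol rats and 0.328 in the 8 water rats, with C1qc -0.832 in ethanol and 0.535 in water rats, and with the microglial mean -0.811 in ethanol and 0.319 in water rats. These values were picked from 60 relations after they were seen, share the Serping1 values, and their difference between groups was not tested. Over all 15 rats none of the 3 passed (r = 0.046, permutation p = 0.896, adjusted p = 0.976, rho = -0.157, permutation p = 0.606, adjusted p = 0.901 for Itgam). Without the 2 rats farthest from the median of Itgam that r was -0.188. With C1qa the r of Serping1 was -0.530 in ethanol and 0.307 in water rats. With C1qb it was 0.038 in ethanol and 0.524 in water rats, and neither of these relations passed over all 15 rats.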
